A study of Mus musculus with 6 samples.

Results

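The miR-125 and miR-99/100 families were followed through 10 mature miRNA labels in the small RNAs bound to Argonaute proteins of mouse brain. Argonaute proteins form the core of the RISC, the RNA-induced silencing complex, where they hold a small RNA and use it to find messenger RNAs. The members were chosen by name: they were the 5 labels of the miR-125 family and the 5 labels of the miR-99/100 family among the 1101 miRNA labels of the table. They covered 2312 of the 143934 read sequences, none of which also carried another miRNA label. The cortex together with the hippocampus came from BL6 mice (C57BL/6J background, per the study's methods, with no transgene or treatment named in the labels), 3 of them young (2 months, 2M) and 3 old (18 months, 18M). Ago1-4 were captured on beads that carried a GW182 peptide, RNA of 19 to 35 nt was cut from a gel, and each library was sequenced (Ago-RP-Seq). Levels are in RPM, for which the authors had scaled the reads of each library to the same total, and 19272046 to 25080485 reads per library could be recovered.

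miR-125 is the vertebrate relative of lin-4, the founding miRNA of the worm, and miR-125b is abundant in brain. The miR-99/100 family is counted among the oldest animal miRNAs and is known for sites in the messenger RNA of the kinase mTOR. In mammals a gene of each family lies with a let-7 gene in the same cluster, and a miRNA finds its targets mainly through the seed, the bases next to its 5′ end.

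In GENCODE M21 (GRCm38) the 6 genes lay in 3 clusters, each in the order miR-99/100, let-7, miR-125 on the + strand. On chromosome 9, Mir100 (chr9:41531425-41531504) and Mir125b-1 (chr9:41581926-41582002) bracketed Mirlet7a-2 in a span of 50578 bases. Both lay in introns of the noncoding genes 3110039I08Rik and Gm49317, and Mir125b-1 also overlapped an exon of the sense-intronic transcript Gm28119. On chromosome 16, Mir99a (chr16:77598936-77599000) and Mir125b-2 (chr16:77646273-77646343) bracketed Mirlet7c-1 over 47408 bases in introns of the noncoding gene Mir99ahg. The cluster on chromosome 17 was the compact one, with Mir99b (chr17:17830188-17830257), Mirlet7e and Mir125a (chr17:17830812-17830879) within 692 bases of the protein-coding gene Spaca6. There Mir99b lay in an intron and Mir125a in an annotated exon.

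The mature sequences of the 5p arms are shown first, because members that share a seed can pair with the same sites. They are from RefSeq (GRCm38.p6), 5′ to 3′, with bases 2 to 8 in capitals and with the prefix mmu for mouse, left out elsewhere.
mmu-miR-125a-5p: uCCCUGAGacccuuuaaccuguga
mmu-miR-125b-5p: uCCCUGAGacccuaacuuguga
mmu-miR-99a-5p: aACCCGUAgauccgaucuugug
mmu-miR-100-5p: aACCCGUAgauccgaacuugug
mmu-miR-99b-5p: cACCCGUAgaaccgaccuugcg
The miR-125 pair shared its first 13 bases. miR-125b-5p (chr9:41581940-41581961 and chr16:77646279-77646300) is the same sequence from both of its genes, so its reads could not be divided between them. miR-99a-5p (chr16:77598940-77598961) and miR-100-5p (chr9:41531437-41531458) were identical at 21 of 22 bases and differed by T16A, written with U as T, the miR-99a-5p base first, counted from 1 at the 5′ end. miR-99b-5p differed from miR-99a-5p at A1C, T11A, T16C and T21C, all outside the capitals. Read by their 6mer seed (bases 2 to 7), the pipeline of the study gave the miR-125 5p arms a viability of 79.4% and the miR-99/100 5p arms 57.2%. Viability is the percent of cells that survive an siRNA with that seed, averaged by the authors over 3 mouse cell lines.

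The 3p arms, the other strand of each hairpin, are shown because they tell apart the genes that the 5p arms cannot.
mmu-miR-125a-3p: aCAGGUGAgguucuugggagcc
mmu-miR-125b-1-3p: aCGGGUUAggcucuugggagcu
mmu-miR-125b-2-3p: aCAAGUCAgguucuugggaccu
mmu-miR-99a-3p: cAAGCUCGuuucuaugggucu
mmu-miR-99b-3p: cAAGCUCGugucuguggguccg
The 3p arms of Mir125a, Mir125b-1 and Mir125b-2 each had a seed of their own, with 6mer viabilities of 63.8%, 53.4% and 37.3%. miR-99a-3p and miR-99b-3p shared theirs, with a viability of 54.6%, and differed by T10G, A14G and T21C, the miR-99a-3p base first.

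The library 18M replicate 2 stood apart on the low side before any comparison. Of the 474 miRNA labels with a mean of at least 10 RPM, which were the labels tested, 27 (5.70%) lay more than 2-fold below the median of the other 5 libraries there, against 3 to 9 labels in each other library. More than 2-fold above that median lay 1 label in 18M replicate 2, 16 in 2M replicate 2 and 2 to 10 in each of the others. Of the 27 low labels in 18M replicate 2, 1 was a member, miR-99a-5p. Results that rest on it are given with and without 18M replicate 2, except for the likeness of profiles.

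The 2 families made up 4.64% to 7.08% of all reads of a library. miR-125b-5p led at 38297, 29094 and 39169 RPM in the 2M libraries and 26857, 33479 and 23714 RPM in the 18M libraries, the sixth highest level of all labels (rank 6). miR-99a-5p followed (rank 19) at 16289, 12098 and 15881 RPM at 2M and 13968, 3170 and 11323 RPM at 18M. miR-125a-5p (rank 26) had 9424, 10858 and 10949 RPM at 2M and 9169, 10343 and 6848 RPM at 18M. Both ages overlapped for each of these labels, and the lowest value of each was from an 18M library.

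Below them came miR-100-5p at 3702, 2746 and 2838 RPM in 2M and 2838, 2637 and 2311 RPM in 18M libraries. miR-99b-5p, from the chromosome 17 cluster, had 1238, 922 and 1255 RPM at 2M and 1344, 1253 and 1381 RPM at 18M. Its 18M values lay close together, and they overlapped the 2M values only through 18M replicate 2. The 3p arms were far lower. miR-125b-2-3p had 351 to 529 RPM over the 6 libraries, miR-125b-1-3p 86.4 to 113 RPM, miR-125a-3p 78.8 to 88.1 RPM, miR-99a-3p 42.9 to 77.1 RPM and miR-99b-3p 44.8 to 60.6 RPM. The plot of levels by library shows this order, which spans the label ranks 6 to 328.

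**Figure D1:**
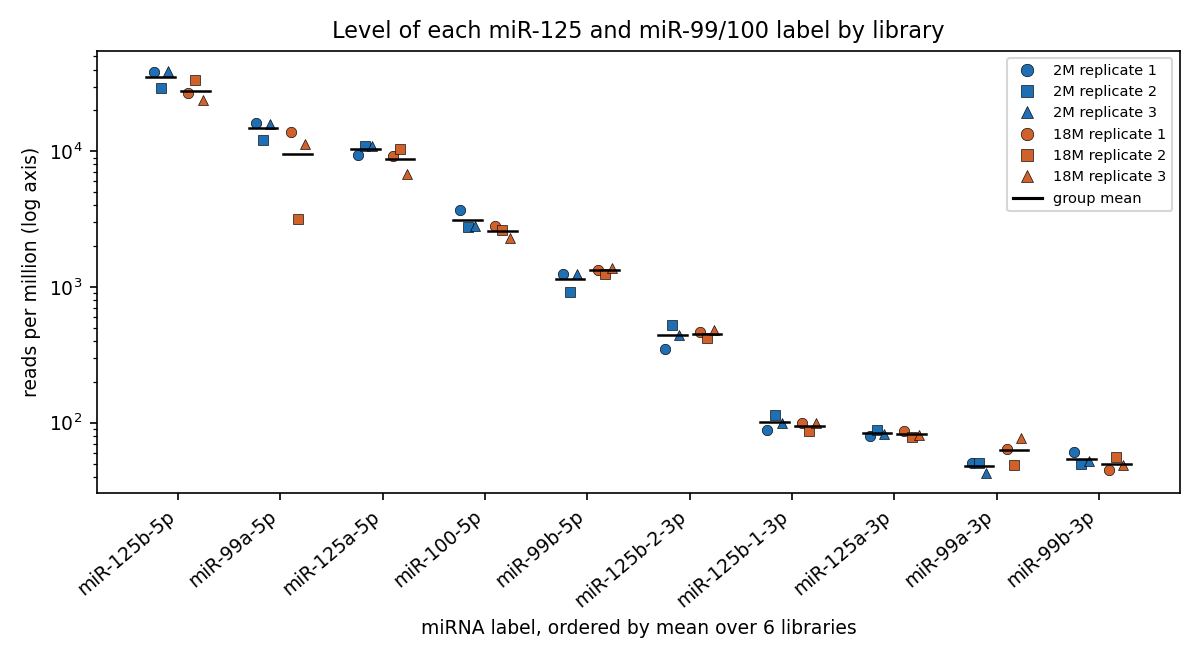
Level of each of the 10 labels in RPM (log axis), 2M libraries in blue and 18M libraries in orange, with a symbol for each replicate and a bar at the mean of each age. The labels fall from 31768 RPM for miR-125b-5p to 52.1 RPM for miR-99b-3p (means of 6 libraries), the ages overlap in each label, and 18M replicate 2 (orange square) is set apart for miR-99a-5p.

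The order of levels was followed between neighbours within each library. As the order came from the means of the same libraries, its steps are descriptions. For 7 of the 9 neighbouring pairs the higher label was higher in 6 of 6 libraries. miR-99a-5p and miR-125a-5p could not be ordered: the log2 difference was 0.18 ± 0.95 (SD, n = 6), positive in 5 of 6 libraries, with 18M replicate 2 at -1.71. Nor could miR-99a-3p and miR-99b-3p, at 0.07 ± 0.41 (SD, n = 6), positive in 3 of 6. Levels of different miRNAs also carry the ligation and amplification preferences of the library preparation, which were not corrected.

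RISC-bound levels in RPM differed between labels of the same cluster, with the preferences of the library preparation uncorrected. miR-125b-5p, which can come from 2 clusters, exceeded its chromosome 16 neighbour miR-99a-5p 1.92-fold to 2.47-fold in 5 libraries and 10.6-fold in 18M replicate 2. It exceeded its chromosome 9 neighbour miR-100-5p 9.46-fold to 13.8-fold. On chromosome 17, where the 3 genes lie within 692 bases, miR-125a-5p exceeded miR-99b-5p 4.96-fold to 11.8-fold. That ratio was at its lowest in 18M replicate 3 and at its highest in 2M replicate 2, so it moved more between libraries than the ratio of miR-125b-5p to miR-100-5p.

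To ask how the families change in the RISC with age, each label was compared between 2M and 18M with limma on log2(RPM + 1), fitted over all 474 labels, where a fold change understates the change of low labels. None of the 10 members had an adjusted p under 0.05 or an unadjusted p under 0.05, where 4.85% and 17.9% of all labels tested did. Without 18M replicate 2, 2 of the 10 members had an unadjusted p under 0.05, against 98 of 477 labels: miR-125b-5p at -0.48 and miR-99a-3p at 0.54 on the log2 scale. Without 2M replicate 2 it was 1 of the 10 members, miR-125b-5p at -0.48, against 73 of 471 labels. None of the members had ages that did not overlap, which was the case for 24.9% of the labels. edgeR and DESeq2 on the recovered reads likewise called no member after adjustment, where they called 2.95% and 9.7% of all labels, and each gave 1 member an unadjusted p under 0.05, miR-99a-3p, where 17.7% and 20.3% of all labels had one. Log2 fold changes (18M minus 2M) of the members had a median of -0.09 and those of all labels a median of -0.07. In a bulk tissue, fewer cells of a type and less RNA per cell cannot be told apart.

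Among the 5p arms, miR-125b-5p had a log2 fold change of -0.34 (SE 0.18, limma adjusted p = 0.368), with a 95% confidence interval of -0.77 to 0.08. miR-125a-5p stood at -0.26 (interval -0.68 to 0.16) and miR-100-5p at -0.25 (interval -0.64 to 0.14). miR-99b-5p was the 5p arm with a positive value, 0.23 (interval -0.14 to 0.61). The intervals of these 4 labels all held 0. The size of these values changed with the scaling and with single libraries. Under median-of-ratios scaling miR-125b-5p was at -0.25, miR-125a-5p at -0.17, miR-100-5p at -0.15 and miR-99b-5p at 0.33. miR-125a-5p was at -0.39 without 18M replicate 2 and at -0.0930 without 18M replicate 3. miR-100-5p was at -0.11 without 2M replicate 1, and miR-99b-5p at 0.0881 without 2M replicate 2.

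miR-99a-5p had the lowest point estimate, -0.88 (SE 0.54, limma adjusted p = 0.421), and it rested on 1 library. Without 18M replicate 2 it was -0.22. In that library the label was 4.39-fold lower than the mean of the other 5, and 2.14 lower than their median on the log2 scale, the second lowest deviation of all 474 labels there. All 19 miR-99a-5p read sequences that averaged 10 RPM or more were lower in it, by 1.81-fold to 5.90-fold with a median of 3.81-fold. The other strand of the hairpin did not share the size of that drop: miR-99a-3p was 1.17-fold lower in the same library, at 48.4 RPM against 42.9 to 77.1 RPM elsewhere. Nor did miR-125b-2-3p of the same cluster, at 420 RPM. let-7c-5p, which is also made from a gene outside the cluster, was at 30776 RPM, its highest value of the 6 libraries. So was let-7c-2-3p of that outside gene, at 334 RPM. let-7c-1-3p of the cluster was at its lowest, 3.67 RPM against 3.79 to 5.06 RPM elsewhere, a level too low to be tested. The other 9 members of both families lay within -0.20 and 0.20 of the median of the other libraries on the log2 scale. Summed markers of some cell types were also at an extreme in this library. The oligodendrocyte labels, at 7556 RPM there, and the choroid plexus labels, at 2626 RPM, lay within the range of the other libraries. The erythrocyte labels had 1307 RPM there against 2469 to 3689 RPM elsewhere, the vessel labels 10104 against 11390 to 17001 RPM, the microglia and immune labels 2834 against 3285 to 4111 RPM and the muscle labels 195 against 215 to 355 RPM. The neuron labels were at their highest, 268408 against 211301 to 251786 RPM, as were the olfactory and epithelial labels, 45160 against 27420 to 42266 RPM. Their part in the miR-99a-5p value was not tested.

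**Figure D2:**
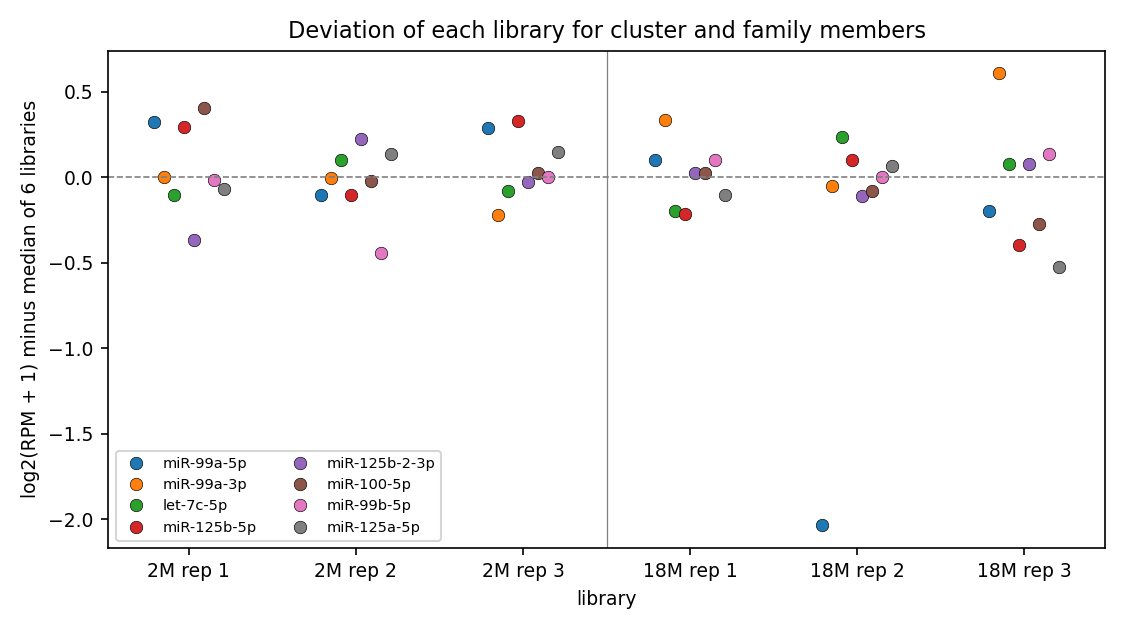
Deviation of 8 labels in each library, as log2(RPM + 1) minus the median of the 6 libraries, with the 2M libraries to the left of the vertical line and the 18M libraries to the right. In 18M replicate 2 miR-99a-5p lies far below the rest. Its 3p arm, its cluster neighbour miR-125b-2-3p and its near-identical relative miR-100-5p stay near 0. So do let-7c-5p and miR-125b-5p, which are also made from genes outside its cluster.

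Among the 3p arms, miR-99a-3p had the highest value, 0.37 (SE 0.18, limma adjusted p = 0.363), from 50.3, 50.1 and 42.9 RPM at 2M and 63.5, 48.4 and 77.1 RPM at 18M. It was 0.54 without 18M replicate 2 and 0.21 without 18M replicate 3. Under median-of-ratios scaling it was 0.46 (limma unadjusted p = 0.0212, adjusted p = 0.177). It was then the 1 of 10 members with an unadjusted p under 0.05, against 87 of 474 labels. In miR-99a-3p the library 18M replicate 2 sat inside the 2M range and the other 18M libraries above it. miR-125b-2-3p (0.06), miR-125a-3p (-0.02), miR-125b-1-3p (-0.07) and miR-99b-3p (-0.12) all had intervals that held 0.

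Summed over its 5 labels, the miR-125 family had 46556 ± 5239 RPM (SD, n = 3) at 2M and 37435 ± 6625 RPM (n = 3) at 18M (exact two-sided permutation p = 0.2, adjusted p = 0.633 over 19 measures of the families). The miR-99/100 family had 19092 ± 2865 RPM and 13521 ± 5721 RPM (exact permutation p = 0.2). With miR-99a-5p left out, an alternative added after its values were seen, the sums were 4336 ± 654 RPM and 4034 ± 239 RPM. The log2 ratio of the 2 family sums, which does not depend on the library total, was 1.29 ± 0.10 at 2M and 1.56 ± 0.93 at 18M. It was 1.18 to 1.36 in the 2M libraries, 1.01 and 1.04 in 18M replicates 1 and 3, and 2.63 in 18M replicate 2. A design of 3 against 3 cannot give a permutation p below 0.1.

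**Figure D3:**
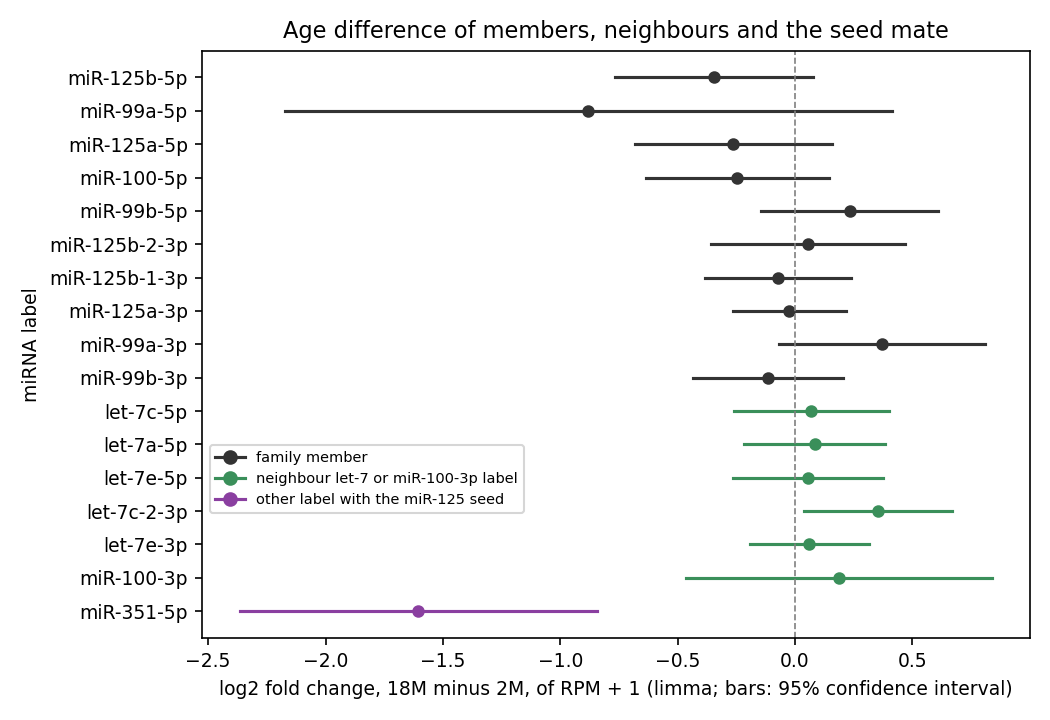
Log2 fold change of RPM + 1, 18M minus 2M, with 95% confidence intervals from limma, for the 10 members (black), the tested cluster partners (green) and miR-351-5p (purple). The intervals of all members hold 0, that of miR-99a-5p is the widest among them, and miR-351-5p lies to the left at -1.60.

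None of the let-7 5p miRNAs encoded between the members passed the test. Log2 fold changes were 0.07 for let-7c-5p, 0.06 for let-7e-5p and 0.08 for let-7a-5p, with limma adjusted p of 0.766 to 0.848. let-7a-5p and let-7c-5p are also made from genes outside these clusters. Of the 8 partner labels, let-7c-1-3p and let-7a-2-3p were under 10 RPM and were not tested, and none of the other 6 passed the adjustment. let-7c-2-3p, a partner in name whose gene Mirlet7c-2 is not in these clusters, had 213 to 262 RPM at 2M and 279 to 334 RPM at 18M (log2 fold change 0.35, limma adjusted p = 0.225). miR-100-3p, the sparse other arm of miR-100, was at 7.77 to 16.2 RPM.

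Outside the families 1 label shared bases 2 to 8 with a member, miR-351-5p, a miRNA encoded in another cluster whose seed CCCUGAG is that of miR-125. It had 34.9, 35.8 and 41.0 RPM at 2M and 14.7, 15.9 and 6.44 RPM at 18M, and the ages did not overlap. It fell by 1.60 on the log2 scale (SE 0.32, limma adjusted p = 0.0478), a call that was lost in edgeR (adjusted p = 0.0714) and kept in DESeq2 (adjusted p = 0.00151). Over all alternatives its adjusted p from limma, edgeR or DESeq2 was 0.00151 to 0.146. The call was lost in 9 of the 15 alternatives: in edgeR, under median-of-ratios scaling (limma adjusted p = 0.0629), in limma without the trend (adjusted p = 0.0514), with the replicate block (limma adjusted p = 0.144), with reads of a single label (limma adjusted p = 0.0527), without any one of the 2M libraries and without 18M replicate 1. Its mean of 24.8 RPM compares with 31768 RPM of miR-125b-5p. The labels whose profile over the 6 libraries was most like that of the miR-125 family were miR-335-3p, miR-409-3p and miR-200a-5p (root mean square difference of centred log2 values 0.101 to 0.106, against a median of 0.327 over 464 labels). For the miR-99/100 family they were miR-30c-2-3p, miR-34c-5p and miR-409-5p (0.265 to 0.270, median 0.511). The sum of this family was lowest in 18M replicate 2, at 7165 RPM, through miR-99a-5p. These 3 labels were also lowest there, at 12.5, 197 and 50.7 RPM. Their likeness was not computed without this library.

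Most RISC-bound reads of each miRNA came from the 5p arm. It made up 98.8% to 99.2% of the reads of miR-125a, 97.6% to 98.9% of miR-125b, 94.9% to 96.8% of miR-99b and 99.3% to 99.7% of miR-100. For miR-99a the 5p share was 99.7%, 99.6% and 99.7% at 2M and 99.5%, 98.5% and 99.3% at 18M, with the lowest value in 18M replicate 2. This was 1 of 19 measures (5.26%) whose ages did not overlap (99.67% ± 0.07 and 99.12% ± 0.55, SD, n = 3 each; exact permutation p = 0.1, adjusted p = 0.633). The difference was -0.55 percentage points with all libraries and -0.23 without 18M replicate 2. The 19 measures are those of the families, and arm shares of other miRNAs were not computed. The reads of the 3p arms can be told apart by miR-125b gene: miR-125b-2-3p made up 79.8% to 82.9% of both miR-125b 3p arms. This share holds for the 3p arms bound to Argonaute, with the preferences of the library preparation uncorrected, and does not measure the output of the genes. How the 5p reads divide between the genes was not analysed here.

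Most reads of both families kept the main seed of their label. Across a family, 95.8% ± 0.40 of the miR-125 reads at 2M and 95.7% ± 0.16 at 18M had the main seed of their label, as did 98.2% ± 0.02 and 98.1% ± 0.12 of the miR-99/100 reads (SD, n = 3 each). Among single labels the main seed was rarest in miR-125b-2-3p, at 82.5% of its reads, where a start 2 bases earlier gave 9.21% of reads another 6mer seed with a viability of 71.3% in place of 37.3%. It was at 88.7% in miR-99b-3p.

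At the other end the members differed from the reference. The most abundant miR-125a-5p read was 2 bases shorter than the 24 nt reference and held 47.5% of its reads, and the most abundant miR-99a-5p read was 21 nt long, 1 base short (46.6%). In miR-125b-5p the 22 nt reference itself led, at 60.4%. Past the reference end, 7.82% of the miR-99a-5p reads carried an A and 5.29% a T where the hairpin has a G, and 7.22% and 3.50% of the miR-100-5p reads where it has a C. In miR-99b-5p an A stood there in 4.31% and a T in 2.72% of reads, and its hairpin was not used here. The miR-125 5p arms had fewer such reads: 2.60% of miR-125b-5p and 0.16% of miR-125a-5p had an A past the end. Few miR-125a-5p reads reach that far, as 0.25% of those that start at the reference base were 25 nt long. The value of 0.16% therefore leaves out added bases on its shorter reads. Counted on reads of any length, non-templated 3′ bases were in 3.69% to 4.48% of miR-125a-5p reads over the 6 libraries. For miR-125b-5p it was 4.54% to 6.17%.

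**Figure D4:**
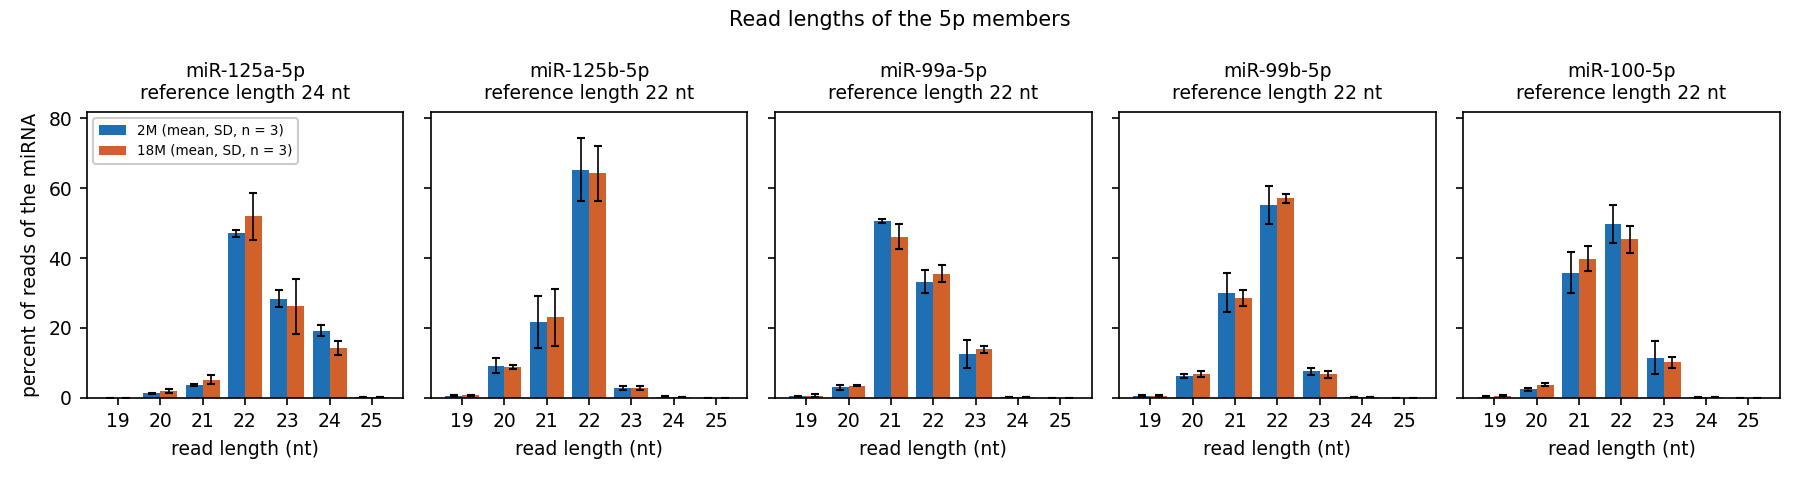
Read length in nt against the percent of reads of each 5p member, for reads that start at the first base of the reference, with 2M in blue and 18M in orange (bars, mean; lines, SD; n = 3). miR-125a-5p has its peak at 22 nt, short of its 24 nt reference, miR-99a-5p at 21 nt and the other 3 at the reference length of 22 nt.

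The reads of miR-125a-5p were slightly shorter in all 18M libraries. The mean length of all its reads was 22.63, 22.61 and 22.60 nt at 2M and 22.48, 22.43 and 22.48 nt at 18M, a difference of -0.15 nt without overlap (exact permutation p = 0.1, the smallest possible). Of the 10 members it was the only one without overlap in mean read length, where 19% of the 474 labels had none. Its 24 nt reads went from 19.3% ± 1.61 at 2M to 14.3% ± 2.00 at 18M of the reads that start at the reference base, and its 20 nt reads from 1.28% ± 0.12 to 1.98% ± 0.46 (SD, n = 3 each).

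Single read sequences were compared in the same way. Of the 104 member sequences that averaged 10 RPM or more, none had a limma adjusted p under 0.05 (0.366% of all 3281 sequences did), 6 had an unadjusted p under 0.05 (5.77%, against 13% of all), and 10 did not overlap between the ages (9.62%, against 21% of all). The count of 6 rested on the libraries: it was 19 of 103 without 2M replicate 2 (308 of all 3286 sequences), 15 of 103 without 18M replicate 1 (378 of 3254), 18 of 102 without 18M replicate 2 (564 of 3291) and 4 of 102 without 2M replicate 3 (377 of 3293). Of the 6, miR-125a-5p had 4 of its 14 sequences, shown here to tell at which end they differ, with the end past base 21 in capitals.
miR-125a-5p reference read: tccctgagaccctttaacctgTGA
miR-125a-5p reference read ending in T: tccctgagaccctttaacctgTGT
miR-125a-5p reference read without base 1: ccctgagaccctttaacctgTGA
miR-125a-5p 21 nt with an added A: tccctgagaccctttaacctgA
The second and the last differ from the reference read at the 3′ end and the third at the 5′ end. The 24 nt reference read had 1691, 1690 and 1732 RPM at 2M and 1013, 1488 and 769 RPM at 18M (log2 fold change -0.70, limma adjusted p = 0.300). The same read with a T in place of the last base had 203 to 225 RPM at 2M and 99.8 to 165 RPM at 18M (-0.67, limma adjusted p = 0.276). The read cut after base 21 and ending in an A went the other way, with 40.5 to 47.7 RPM at 2M and 56.7 to 87.4 RPM at 18M (0.65, limma adjusted p = 0.249). The reference read without its first base had means of 19.9 RPM at 2M and 12.2 RPM at 18M (-0.69). The remaining sequences under 0.05 without adjustment were a 20 nt read of miR-100-5p, 69.5 and 94.6 RPM (0.43), and the most abundant read of miR-99a-3p, 12.1 and 23.8 RPM (0.95, limma adjusted p = 0.234).

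Substitutions within the first 18 bases were then counted for each member, in reads that start at the first base of the reference and differ from it once. Most were rare: the median substitution was at 0.036% of the reads of miR-99a-5p and 0.044% of those of miR-100-5p. 2 of them stood out and were chosen after their values were seen, so that their values are descriptions. They are written with the reference base first and are shown with the changed base in capitals, above the most abundant read without the change.
miR-99b-3p A3G: caGgctcgtgtctgtgggtccga
miR-99b-3p: caAgctcgtgtctgtgggtccga
miR-99a-5p A1G: Gacccgtagatccgatcttgt
miR-99a-5p: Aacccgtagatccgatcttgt
A3G in miR-99b-3p lies in the seed and turns AAGCUC (viability 54.6%) into AGGCUC (13.2%), while A1G in miR-99a-5p lies before it and leaves the seed as it is.

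A3G was read in 11.6%, 9.85% and 10.4% of the miR-99b-3p reads at 2M and in 16.6%, 15.5% and 13.3% at 18M, and the 18M libraries were all higher (10.6% ± 0.90 and 15.1% ± 1.70, SD, n = 3 each). The counts behind this were small, 117 to 209 of 880 to 1345 reads, and the 95% Wilson intervals of the nearest libraries, 9.99% to 13.5% in 2M replicate 1 and 11.4% to 15.4% in 18M replicate 3, overlapped. Such intervals cover no more than counting error, and no molecular identifiers were used. Of the 158 member substitutions with a mean of at least 1 RPM, 17 (10.8%) did not overlap between the ages. In RPM the A3G reads were 5.88 ± 1.19 and 7.72 ± 1.13 and the remaining miR-99b-3p reads 49.7 ± 5.14 and 43.8 ± 5.16 (SD, n = 3 each), both with overlap. The mean seed viability of all miR-99b-3p reads was 51.3% ± 0.12 at 2M and 49.6% ± 0.78 at 18M. Although miR-99a-3p has the same first bases, none of its read sequences in the table, from which the authors had removed rare reads, carried A3G.

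A1G was read in 2.99% to 3.59% of the miR-99a-5p reads and in 0.752% to 0.889% of those of miR-100-5p, which has the same first 15 bases. It was higher in miR-99a-5p in 6 of 6 libraries, by 2.44 ± 0.25 percentage points (SD, n = 6). At 2M and 18M the miR-99a-5p share was 3.25% ± 0.18 and 3.30% ± 0.30, with overlap, and 18M replicate 2, where the miRNA itself was low, had the highest share. The source of either substitution was not tested.

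**Figure D5:**
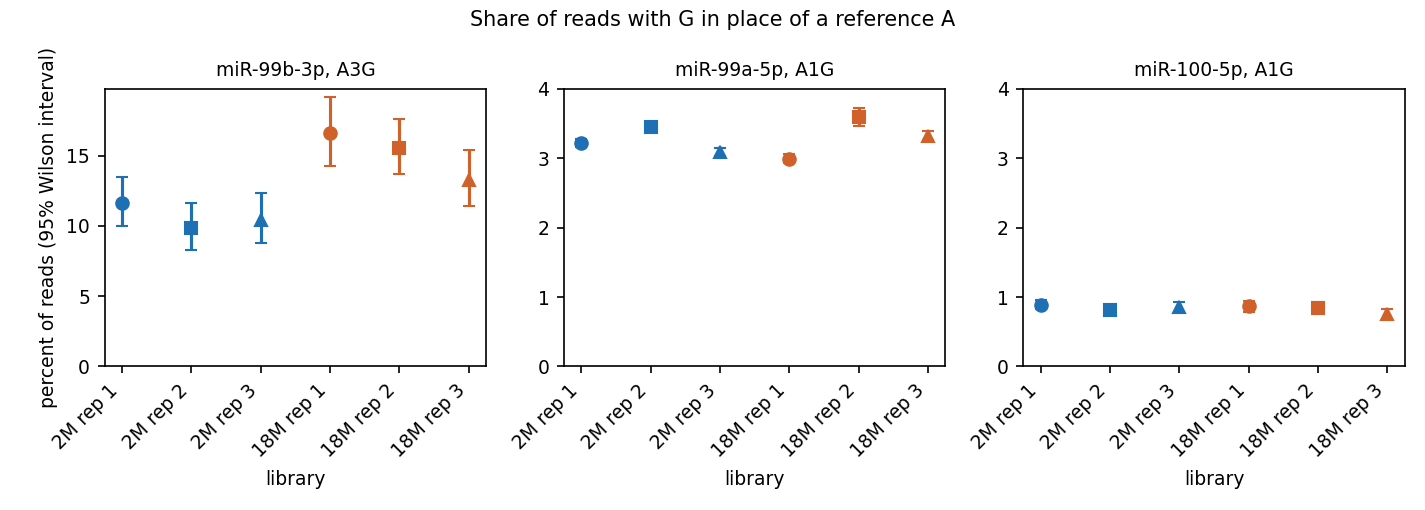
Percent of reads with A3G in miR-99b-3p and with A1G in miR-99a-5p and miR-100-5p for each library, 2M in blue and 18M in orange, with 95% Wilson intervals (vertical lines) and each axis starting at 0 (the axis of the first panel reaches higher). The 18M values of miR-99b-3p are 13.3% to 16.6% and its 2M values 9.85% to 11.6%, and miR-99a-5p lies above miR-100-5p in each library.

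The table gives a second annotation to each read, and it disagreed with the first for 1 member. All miR-125a-5p reads (100%) were called mRNA there, and they made up 14.9% to 21.3% of the reads of that mRNA class in a library. The other members were mainly called miRNA in it. Marker miRNAs of all cell types listed were present at both ages, and none of the lists held a label called between the ages. Of the vessel labels, 4 of 4 had at least 10 RPM and summed to 11390 to 17001 RPM at 2M and 10104 to 13607 RPM at 18M, as did 5 of 5 neuron labels with 236303 to 251786 RPM and 211301 to 268408 RPM. The 3 oligodendrocyte labels summed to 6659 to 13932 RPM at 2M and 7556 to 11213 RPM at 18M. The erythrocyte labels (3 of 4 at 10 RPM or more) had 2550 to 3689 and 1307 to 2892 RPM, the olfactory and epithelial labels (4 of 4) 35286 to 42266 and 27420 to 45160 RPM, the choroid plexus labels (1 of 2) 2530 to 2992 and 2626 to 2900 RPM and the muscle labels (2 of 3) 215 to 355 and 195 to 355 RPM. These lists overlapped between the ages. Of the 6 microglia and immune labels, 5 had at least 10 RPM. Their sum was lower at 18M without overlap, 3776 to 4111 RPM and 2834 to 3402 RPM, and its part in the members' levels was not tested.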

How the data were processed

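Small RNAs of an Ago1-4 pull-down were measured in 3 libraries of 2-month-old (2M) and 3 of 18-month-old (18M) mice. Per the study's methods, the authors de-multiplexed, trimmed (Trim Galore, per the labels) and collapsed the reads into a table of read sequences, removed rare reads, matched the rest to lists of mouse small RNAs, scaled each library to RPM and added a 6mer seed viability. The deposited viability is a score made by the authors, the percent of surviving cells averaged over 3 mouse cell lines. Tool versions and the genome build were not given in the sources used here, except that 1 annotation string names mm9, whose coordinates were not used. No column held samples outside the 6 libraries.

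Here the RPM of all sequences with a miRNA label were summed, and labels or sequences that averaged 10 RPM or more were tested with limma 3.58.1 (lmFit, eBayes with trend; R 4.3.3) on log2(RPM + 1), with Benjamini-Hochberg adjustment over all of them and a threshold of 0.05. Low values of each library (100%) lay within 0.05 of a whole read, so whole reads were recovered, and edgeR 4.0.16 (quasi-likelihood, TMM) called 14 and DESeq2 1.42.0 called 46 labels on them, against 23 with limma. A floor of 3 reads was 0.120 to 0.156 RPM. Groups came from the sample titles. Replicate numbers were taken to name separate mice and to pair nothing, and no libraries were duplicates. Per-library measures were compared with exact two-sided permutation tests.

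Members, lists and measures were chosen with earlier results of these data known. The miRNAs named were the members, their cluster partners, labels that share bases 2 to 8 of the most abundant read, and for each family the 3 labels with the most similar profile. The read sequences named were the most abundant of each member, those with an adjusted p under 0.05 (none), and, among those with an unadjusted p under 0.05, the 5 at most that gained or lost most. Substitution shares, mean read lengths and the family sum without miR-99a-5p were added after the data were seen. A read was placed on the reference where at least 17 bases matched from its first base. Sequences are from RefSeq (GRCm38.p6), where all 10 members matched. Hairpins of Mir99b and Mir125b-2 were not used here. Non-templated ends were therefore measured without miR-99b-5p, and those of miR-125b-5p against the Mir125b-1 hairpin alone. Tables were handled with pandas 2.3.3 and numpy 2.4.6 in Python 3.11.15, statistics with scipy 1.17.1 and plots with matplotlib 3.10.9. Alternatives were other pseudocounts, filters, scalings, tools, read sets and leaving out each library.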

Additional observations from a re-analysis of the deposited data

Results flagged for a closer look

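2 results were flagged because they lie in reads that no comparison of the report used, those without a miRNA label. Reads without a label that hold bases 2 to 16 of miR-125a-5p or miR-125b-5p had a mean of 114 RPM over the 6 libraries (120 read sequences), with 107 to 139 RPM at 2M and 85.4 to 122 RPM at 18M. Reads without a label that hold bases 3 to 15 of a miR-99/100 5p arm had a mean of 65.0 RPM (102 read sequences), with 64.4 to 82.3 RPM at 2M and 26.3 to 74.4 RPM at 18M. Both sums are small beside the labelled reads of the families, 41996 RPM and 16307 RPM, and the lowest miR-99/100 value was again that of 18M replicate 2.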

How the results depend on the processing

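No member label and no member read sequence had an adjusted p under 0.05 under any alternative run (0 of 10 labels and 0 of 104 sequences by limma, where 0 and 6 had an unadjusted p under 0.05). Without 1 library, 0 to 2 member labels had an unadjusted p under 0.05, against 63 to 98 of the 468 to 477 labels tested. For read sequences it was 4 to 19 members, against 258 to 564 of the 3254 to 3293 tested. The replicate block gave 12 of 104 member sequences, against 348 of 3281. Over all labels the 23 calls became 2 for labels of 100 RPM or more, 15 when limma used no trend, 14 under median-of-ratios scaling and in edgeR, 46 in DESeq2, 15 with only reads of a single label and 0 to 15 without 1 library (0 without 2M replicate 2 or 3). Over all read sequences the 12 calls became 20 at 1 RPM, 0 at 100 RPM, 151 in DESeq2 and 0 without any 1 library. The replicate numbers were taken not to pair the mice. Correlations of deviations from the age mean were -0.22 to -0.10 for same numbers and -0.10 to 0.18 for others. With 3 libraries per age these cannot tell whether same numbers shared a processing batch. With the replicate block 1 label and 0 sequences were called. Of the labels with an unadjusted p under 0.05, 24.7% were higher at 18M, 49.4% under median-of-ratios scaling, 40.5% in edgeR and 47.9% in DESeq2.

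Values near 0 changed sign. The log2 fold change of miR-125a-3p was 0.0704 under median-of-ratios scaling, 0.0580 in edgeR, 0.0705 in DESeq2 and -0.0662 to 0.0136 without 1 library. That of miR-125b-1-3p was 0.0223, 0.0016 and 0.0145 in the same 3 settings and -0.16 to 0.0150 without 1 library. Without 1 library, miR-125b-2-3p ranged from -0.10 to 0.20, let-7c-5p from -0.0283 to 0.19, let-7e-5p from -0.0202 to 0.13, let-7a-5p from -0.0026 to 0.15, miR-100-3p from -0.0332 to 0.45 and miR-30c-2-3p from -0.48 to 0.18. The most abundant read of miR-125a-5p ranged from -0.37 to 0.10, of miR-125a-3p from -0.0069 to 0.0729, of miR-125b-1-3p from -0.20 to 0.0196 and of miR-125b-2-3p from -0.13 to 0.29.

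Without 1 library, the age difference of the log2 ratio of the families ranged from -0.27 (without 18M replicate 2) to 0.55, and that of the miR-125 main seed share from -0.16 to 0.20 percentage points. For miR-125 5p reads it ranged from -0.88 to 8.02 points (shorter than the reference), -7.53 to 0.79 (at its end), -0.49 to 0.13 (longer) and -0.52 to 0.25 (non-templated end). For miR-99/100 5p reads it ranged from -2.11 to 1.37 (longer) and -1.81 to 1.80 (non-templated end, without miR-99b-5p). The miR-99/100 main seed share reversed to 0.0016 points with sequences of at least 1 RPM. The cause of these changes was not tested. The miR-99/100 family sum differed by -5570 RPM, by -2392 RPM without 18M replicate 2 and by -301 RPM without miR-99a-5p.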
